A study of Homo sapiens with 25 samples.

Results

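The miR-99/100 and miR-125 families were followed in small RNA sequencing of A2780, an established line of human ovarian carcinoma cells. The members were taken by name: the unstarred mature rows of miR-99a, miR-99b, miR-100, miR-125a and miR-125b, and the precursor rows hsa-mir-99a, hsa-mir-99b, hsa-mir-100, hsa-mir-125a, hsa-mir-125b-1 and hsa-mir-125b-2. They were 5 of the 1410 rows of the mature table and 6 of the 934 rows of the precursor table, of which 1033 and 557 were human. The cells carried a lentivirus overexpressing pri-miR-450a (called miR-450a cells here), a lentivirus overexpressing pri-miR-450b (miR-450b cells) or the empty lentivirus vector (empty-vector cells), with 3 libraries in each group. All groups thus carried a lentivirus and were grown in RPMI medium with serum. Each construct was represented by 1 set of 3 libraries, so what the insert did and any other difference between the cell populations cannot be told apart. The labels call the libraries biological replicates without saying whether they came from separate cultures or transductions, and the spread between them, which is all that the p-values measure, may be technical. Values are shares of all miRNA reads of a library, given as reads per 1000000 miRNA reads (RPM). The number of reads behind a share is unknown, and because a share is relative, fewer copies of a miRNA per cell, fewer cells that make it and more of other miRNAs cannot be told apart.

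A miRNA guides Argonaute proteins to messenger RNAs that pair with its seed, the bases 2 to 8 from its 5′ end, and lowers their translation and stability. The miR-125 family holds the human relatives of lin-4, the C. elegans miRNA that times larval development, while the miR-99/100 family is known for targets in mTOR signalling such as MTOR itself. Members of both families lie beside a let-7 gene in 3 related loci that arose by duplication. In the RefSeq gene table of GRCh38.p14, MIR99A, MIRLET7C and MIR125B2 lie on chromosome 21 within the long non-coding gene MIR99AHG. MIR100, MIRLET7A2 and MIR125B1 lie on chromosome 11 within the long non-coding gene MIR100HG. MIR99B, MIRLET7E and MIR125A lie on chromosome 19 within SPACA6, a protein-coding gene, and its antisense gene SPACA6-AS1. The tables of shares name no genome build, so only these positions by gene are given.

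The mature sequences below, from RefSeq (GRCh38.p14), show which products can be told apart by sequencing. The seed is in capitals.
miR-99a-5p: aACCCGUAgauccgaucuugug
miR-100-5p: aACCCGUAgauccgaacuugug
miR-99b-5p: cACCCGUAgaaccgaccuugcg
miR-125b-5p: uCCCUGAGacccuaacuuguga
miR-125a-5p: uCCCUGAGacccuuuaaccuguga

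The 5 miRNAs have 2 seeds, 1 shared by the 3 miRNAs of the miR-99/100 family and 1 shared by both miR-125 miRNAs. Counting positions from 1 at the 5′ end, miR-100 differs from miR-99a by U16A alone, 1 of 22 bases, and miR-99b differs from miR-99a by A1C, U11A, U16C and U21C. miR-125b and miR-125a are 22 and 24 bases long and have the first 13 and the last 5 bases in common. The mature miR-125b of chromosome 11 (copy 1) and of chromosome 21 (copy 2) is 1 row of the table, because both genes give the same mature sequence. Their 3p arms have the same base at 5 of 22 positions when compared by position without a shift. Both hold the run aggcucuuggga, which starts at a different position in each, and their 5′ ends differ. They were taken by name as the rows listed under a star, miR-125b-1* and miR-125b-2*, since the tables of shares give no sequences.
miR-125b-1-3p: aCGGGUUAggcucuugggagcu
miR-125b-2-3p: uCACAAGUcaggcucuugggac

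The libraries of miR-450a cells stood apart as a whole. The mesenchymal markers (miR-199a, miR-199b, miR-214, miR-143 and miR-145, all 5 found) held 0.0417% to 0.0572% of reads in miR-450a libraries, 20.6% to 25.1% in miR-450b libraries and 17.96% to 25.8% in empty-vector libraries. The 5 epithelial markers (miR-200a, miR-200b, miR-200c, miR-141 and miR-429) were scarce in this carcinoma line and summed to 276 to 368 RPM in miR-450a cells, 87.9 to 152 RPM in miR-450b cells and 67.3 to 89.2 RPM in empty-vector cells. The 3 muscle markers summed to 16.2 to 29.4 RPM, 79.2 to 104 RPM and 517 to 652 RPM in these groups in the same order, and miR-206 was listed at 0 in every miR-450a library. The blood list (4 of 5 markers found) reached 280.1, 303 and 305 RPM, and the liver marker miR-122 reached 9.07, 18.7 and 17.5 RPM. The viral row SV40 miR-S1-3p was at 47.8 to 73.4 RPM in miR-450a cells, at most 0.501 RPM in miR-450b cells and at most 0.267 RPM in empty-vector cells. miR-450a itself was at 8967 to 20745 RPM in its own cells, 270.2 to 504 RPM in miR-450b cells and 317 to 446 RPM in empty-vector cells. miR-450b was at 207 to 293 RPM, 547 to 1544 RPM and 71.6 to 131 RPM. The part that any of these differences has in the results below was not tested.

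miR-99a, made on chromosome 21, had the widest relative range of the 5 miRNAs. It stood at 534, 1509 and 244 RPM in miR-450a libraries, 5442, 7259 and 5697 RPM in miR-450b libraries and 26650.0, 24521 and 10186 RPM in empty-vector libraries. The 3 groups did not overlap, although empty-vector replicate 3 was well below the other two. By rank among all 1410 rows, miR-99a was at places 128, 82 and 167 in miR-450a cells, 37, 30 and 39 in miR-450b cells and 11, 13 and 22 in empty-vector cells.

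miR-125b, whose genes lie on chromosomes 21 and 11, had the next widest relative range. Its levels were 1949, 645 and 1543 RPM in miR-450a cells, 4369, 5205 and 7286 RPM in miR-450b cells and 9450.3, 10470.5 and 6676 RPM in empty-vector cells. The miR-450a libraries lay below all others, whereas miR-450b and empty-vector libraries overlapped.

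The chromosome 19 members spanned narrower relative ranges. miR-99b was at 12362, 4704 and 9336 RPM in miR-450a cells, 24308, 15357 and 15959 RPM in miR-450b cells and 7398, 12709 and 14061 RPM in empty-vector cells, so that its miR-450b libraries were above all others. miR-125a was at 1204, 751 and 1410 RPM in miR-450a cells, 4419, 1751 and 2321 RPM in miR-450b cells and 2663, 4127 and 1628 RPM in empty-vector cells. For miR-125a, the miR-450a libraries were again the lowest, and the other groups overlapped.

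miR-100, the chromosome 11 member, was scarce in every group. It was at 36.5, 13.999 and 20.1 RPM in miR-450a cells, 15.7, 18.8 and 24.0 RPM in miR-450b cells and 47.5, 54.4 and 33.7 RPM in empty-vector cells. Only miR-450a replicate 1 reached into the range of empty-vector libraries. miR-100 differs from miR-99a at a single base and amounted to 0.928% to 8.25% of the miR-99a reads in miR-450a cells, 0.259% to 0.422% in miR-450b cells and 0.178% to 0.331% in empty-vector cells. How reads with a mismatch at that base were assigned is not given in the sources used here, so the level of miR-100 is uncertain.

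The order of the means was miR-99a, miR-99b, miR-125b, miR-125a and miR-100 in empty-vector cells, at 20452, 11389, 8866, 2806 and 45.2 RPM. There the libraries of miR-99a overlapped with those of miR-99b, and those of miR-99b with those of miR-125b, while the other neighbours in this order did not overlap. In both other groups miR-99b came first, at 8801 RPM in miR-450a cells and 18541 RPM in miR-450b cells. miR-99a (6133 RPM) and miR-125b (5620.1 RPM) followed in miR-450b cells, and their libraries overlapped. In miR-450a cells, miR-125b (1379 RPM), miR-125a (1122 RPM) and miR-99a (762 RPM) overlapped with one another. Levels of different miRNAs are compared here as shares of reads, and differences in ligation between sequences were not measured.

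**Figure D1:**
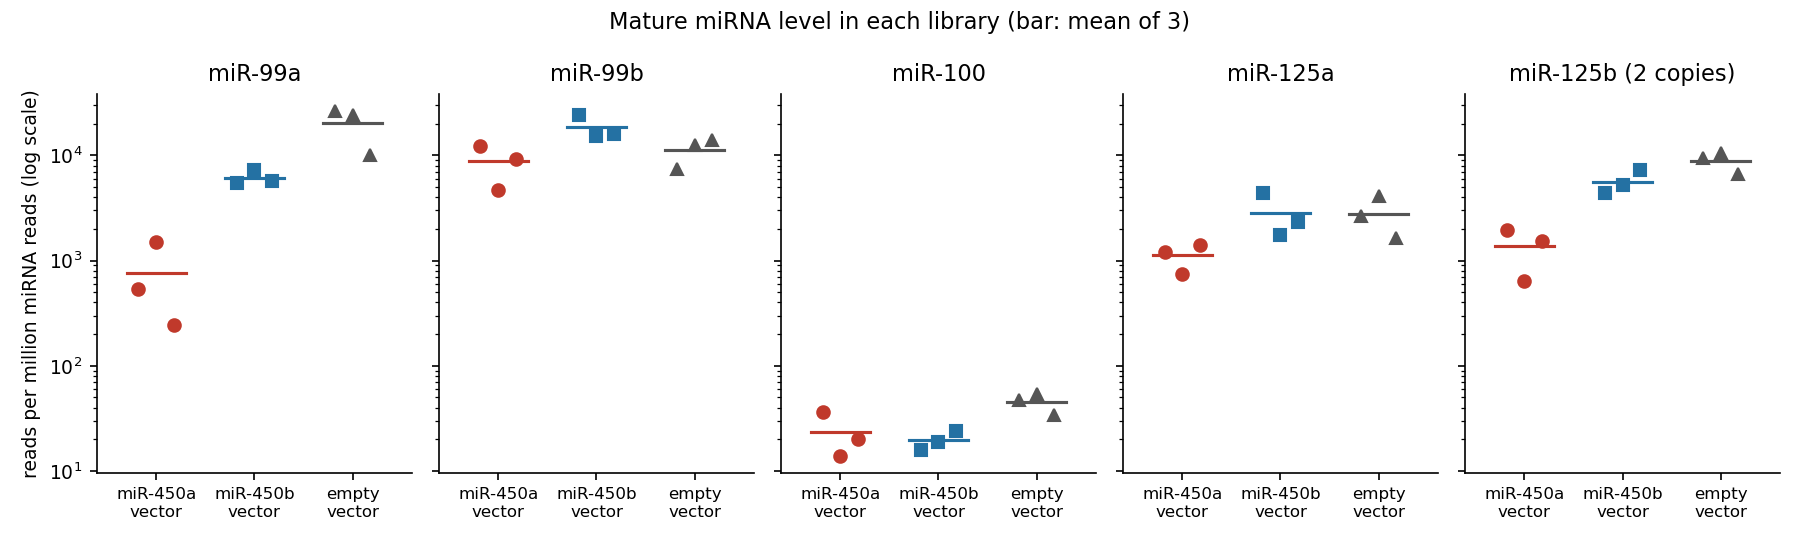
RPM on a log axis for the 5 mature miRNAs in each of the 9 libraries, by vector, with a bar at the mean of 3 libraries. miR-99a spans 244 to 26650.0 RPM with no overlap between groups, while miR-99b of miR-450a cells overlaps with that of empty-vector cells.

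The first comparison set miR-450a cells against empty-vector cells. In miR-450a cells, miR-99a averaged 762 ± 663 RPM, against 20452 ± 8954 RPM in empty-vector cells (SD, n = 3 each), 26.8 times lower. miR-125b averaged 1379 ± 667 RPM in miR-450a cells and 8866 ± 1964 RPM in empty-vector cells, 6.43 times lower, and miR-125a was 2.50 times lower. In a limma fit of log2(RPM + 10) over all 9 libraries, miR-99a fell by 4.99 ± 0.58 (log2 change and SE, Benjamini-Hochberg adjusted p = 2.19e-05). miR-125b fell by 2.79 ± 0.41 (limma adjusted p = 0.000136) and miR-125a fell by 1.26 ± 0.44 (limma adjusted p = 0.0300). miR-100 fell by 0.76 ± 0.27 (limma adjusted p = 0.0329), although its groups overlapped. miR-99b, at 8801 ± 3857 RPM in miR-450a cells and 11389 ± 3522 RPM in empty-vector cells, had a log2 change of -0.43 ± 0.39 and did not pass (limma adjusted p = 0.379).

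Thus 4 of the 5 mature members were lower in miR-450a cells than in empty-vector cells and none was higher, where 18.5% of the 406 mature rows tested were called lower. The median log2 change of the members was -1.26, against 0.44 over all mature rows tested. Among the precursors, 5 of 6 members were called lower, all but hsa-mir-99b, where 19.4% of the 284 rows tested were, with medians of -2.01 and 0.54. Both miR-125b precursor rows carry the same mature reads, and with these counted once 4 of 5 were lower, with a median of -1.26. The precursor values are made up of the reads of the mature and starred rows, as given below. Precursor counts, here and in the other comparisons, therefore repeat the mature calls and are no separate evidence. Scaling the libraries by median of ratios moved the median of all mature rows to 0.05. Under it the changes of miR-99a, miR-125b, miR-125a and miR-100 were -5.42, -3.23, -1.70 and -1.06, all still called, and miR-99b was at -0.87 (limma adjusted p = 0.0975). The calls of miR-99a and miR-125b held under all 18 alternatives run. The size for miR-99a moved with single libraries: without miR-450a replicate 2 its log2 change was -5.66 and its mean 52.6 times lower, and without replicate 3 they were -4.37 and 20.02 times. The call of miR-125a was lost without miR-450a replicate 1 (limma adjusted p = 0.0582) or replicate 2 (0.0931), without empty-vector replicate 1 (0.0627) or replicate 2 (0.113) and with no filter on low rows (0.122). The call of miR-100 was lost in 8 of 17 alternatives, among them leaving out miR-450a replicate 2 (log2 change -0.54, limma adjusted p = 0.114) or replicate 3 (0.0923), miR-450b replicate 2 (0.0511) and empty-vector replicate 1 (0.0722) or replicate 2 (0.0995).

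In miR-450b cells fewer members passed against the same empty-vector libraries, which both comparisons share. miR-99a averaged 6133 ± 984 RPM in miR-450b cells and 20452 ± 8954 RPM in empty-vector cells (SD, n = 3 each), 3.33 times lower. Its groups did not overlap, yet its log2 change of -1.63 ± 0.58 did not pass (limma adjusted p = 0.1004). It passed in 5 of 18 alternatives, among them fitting only the groups compared (0.0308) and leaving out miR-450a replicate 2 (0.0248) or 3 (0.0459) or empty-vector replicate 3 (log2 change -2.07, limma adjusted p = 0.0446), within a range of 0.0248 to 0.418 over all 18 alternatives. miR-100, 2.32 times lower on average, fell by 0.89 ± 0.27 and passed narrowly (limma adjusted p = 0.0483), and that call was lost in 13 of 17 alternatives, whose adjusted p ranged from 0.0238 to 0.197. Leaving out miR-450a replicate 3 (0.0686), any miR-450b replicate (0.0582 to 0.178) or empty-vector replicate 1 (0.120) or 2 (0.126) was enough to lose it in limma.

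Neither the chromosome 19 members nor miR-125b passed in miR-450b cells. miR-99b averaged 18541 ± 5003 RPM in miR-450b cells and 11389 ± 3522 RPM in empty-vector cells, a log2 change of 0.72 ± 0.39 (limma adjusted p = 0.269). miR-125a had a log2 change of 0.0017 ± 0.44 (limma adjusted p = 0.999) and miR-125b one of -0.66 ± 0.41 (limma adjusted p = 0.330). The count was 1 of 5 mature members lower and none higher, where 10.1% of all mature rows tested were called lower, and 1 of 6 precursors (hsa-mir-100), where 11.6% were. The member medians were -0.66 and -0.59, beside -0.16 and -0.21 over all mature and precursor rows tested.

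Between both overexpressing groups, 4 of 5 mature members were lower in miR-450a cells than in miR-450b cells. miR-99a fell by 3.36 ± 0.58 (limma adjusted p = 0.000509) and miR-125b by 2.13 ± 0.41 (limma adjusted p = 0.00104), and both calls held under all 18 alternatives. The log2 change of miR-99a was -4.04 without miR-450a replicate 2 and -2.74 without replicate 3. miR-125a fell by 1.26 ± 0.44 (limma adjusted p = 0.0276) and miR-99b by 1.15 ± 0.39 (limma adjusted p = 0.0268). These calls were lost without miR-450a replicate 2 (0.0902 for miR-125a, 0.0910 for miR-99b), without miR-450b replicate 1 (0.111 and 0.0939) and with no filter on low rows (0.127 and 0.120), and that of miR-125a also without miR-450a replicate 1 (0.0528). miR-100 had a log2 change of 0.14 ± 0.27 (limma adjusted p = 0.684), which was -0.26 under median-of-ratios scaling, where the median of all mature rows was 0.13. Over all rows, 18.5% of mature and 17.6% of precursor rows tested were called lower, against 4 of 5 and 5 of 6 members. The member medians were -1.26 and -1.70, beside 0.62 and 0.74 over all mature and precursor rows. With the shared miR-125b reads counted once, 4 of 5 precursors were lower, with a median of -1.28.

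Summed over the 3 miRNAs that share its seed, the miR-99/100 family held 1.29%, 0.623% and 0.960% of miRNA reads in miR-450a cells, 2.98%, 2.26% and 2.17% in miR-450b cells and 3.41%, 3.73% and 2.43% in empty-vector cells. The miR-450a libraries lay below both other groups, which overlapped with each other. The miR-125 family held 0.315%, 0.140% and 0.295% in miR-450a cells, 0.879%, 0.696% and 0.961% in miR-450b cells and 1.21%, 1.46% and 0.830% in empty-vector cells, in the same pattern. Each difference of miR-450a cells from another group had p = 0.1 in a two-sided exact permutation test, the smallest p that 3 against 3 can give (0.15 when adjusted over 6 tests). miR-450b cells against empty-vector cells gave exact p = 0.2 for the miR-99/100 family and 0.3 for the miR-125 family.

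The paralog that supplied most of the miR-99/100 seed differed between groups. miR-99a gave 4.13%, 24.2% and 2.54% of the family's reads in miR-450a cells, 18.3%, 32.1% and 26.3% in miR-450b cells and 78.2%, 65.8% and 42.0% in empty-vector cells. Both overexpressing groups lay below the empty-vector cells (exact permutation p = 0.1 for each, two-sided, 0.167 adjusted over 15 tests), and they overlapped with each other (exact p = 0.2). miR-99b supplied nearly all of the rest, 89.5% ± 12.1, 74.4% ± 6.94 and 37.9% ± 18.4 (SD, n = 3 each) in miR-450a cells, miR-450b cells and empty-vector cells. Within a library, the log2 ratio of miR-99a to miR-99b averaged -3.78 ± 1.89 in miR-450a cells, -1.57 ± 0.544 in miR-450b cells and 0.777 ± 1.17 in empty-vector cells. The scaling of a library cancels in this ratio, apart from the 10 RPM added to each level. Its differences from empty-vector cells were -4.56 and -2.35, each with exact p = 0.1 (two-sided permutation, 0.225 adjusted over 18 tests). miR-100 gave at most 0.283% of the family's reads in any library.

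In the miR-125 family, miR-125b gave most reads in every empty-vector library. miR-125a gave 38.2%, 53.8% and 47.7% of the reads in miR-450a cells, 50.3%, 25.2% and 24.2% in miR-450b cells and 22.0%, 28.3% and 19.6% in empty-vector cells. The miR-450a libraries were above empty-vector libraries without overlap (exact permutation p = 0.1, two-sided), and miR-450b replicate 1 stood apart from the other two of its group. For the chromosome 19 neighbours, the log2 ratio of miR-99b to miR-125a averaged 2.90, 2.79 and 2.06 in miR-450a, miR-450b and empty-vector cells, with exact permutation p of 0.3 for either overexpressing group against empty-vector cells. On the same scale, miR-99a plus miR-100 over miR-125b averaged -1.01 ± 1.97, 0.152 and 1.11, with exact permutation p of 0.2 for miR-450a cells and 0.1 for miR-450b cells, each against empty-vector cells.

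**Figure D2:**
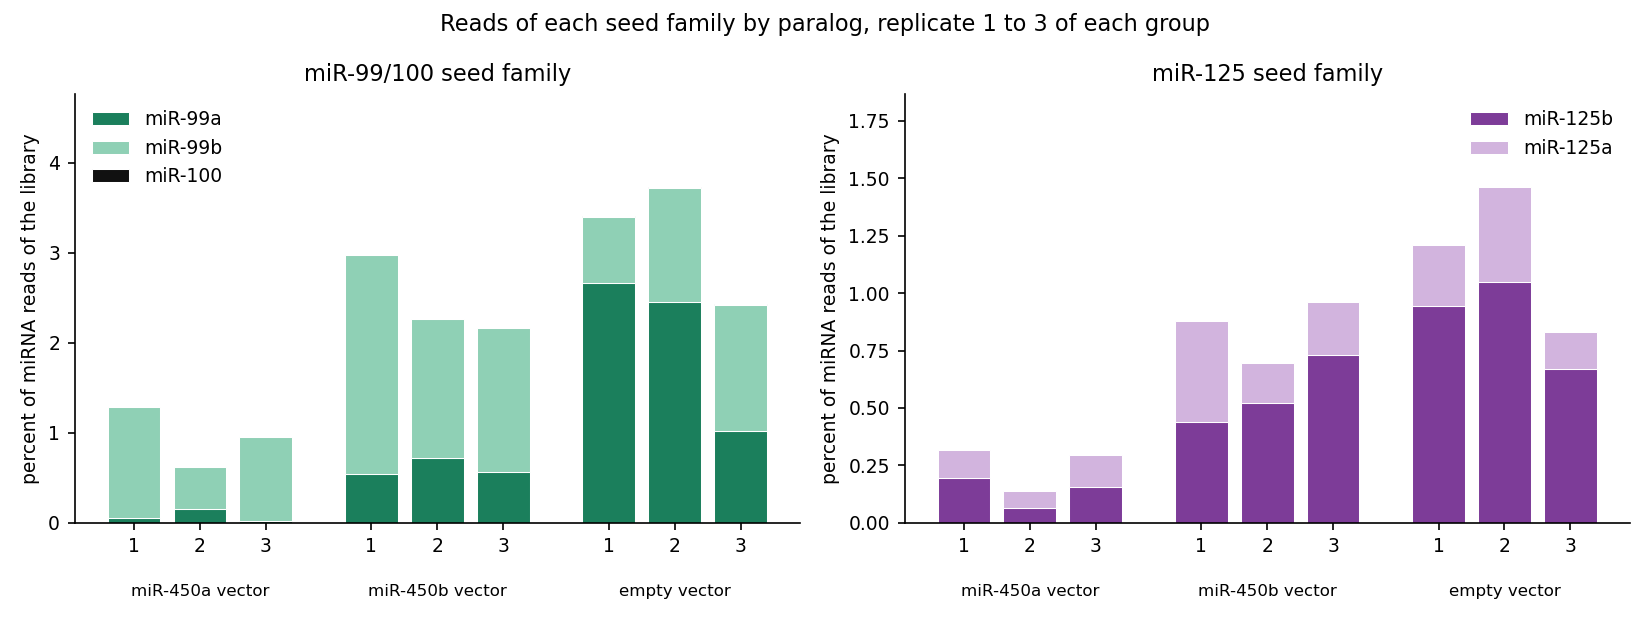
Stacked bars of the percent of miRNA reads held by each seed family in each library, split by paralog, with replicates 1 to 3 of each vector. The miR-99a part makes up 42.0% to 78.2% of the miR-99/100 bar in empty-vector cells and 2.54% to 24.2% in miR-450a cells, and miR-100 is too small to be seen.

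The starred 3p arms, released from the same hairpins, have rows of their own for each hairpin. The share of a hairpin's reads in its starred arm varied between libraries, and its group means are given below. A starred level is therefore no direct measure of the output of a locus. miR-99a* was at 32.9, 51.6 and 24.3 RPM in miR-450a cells, 385, 446 and 419 RPM in miR-450b cells and 658, 574 and 457 RPM in empty-vector cells. It fell by 3.66 ± 0.29 in miR-450a cells against empty-vector cells (limma adjusted p = 7.23e-07), on means 15.5 times lower. In miR-450b cells its log2 change was -0.41 ± 0.29 (limma adjusted p = 0.377), on means 1.35 times lower.

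miR-125b-2*, the starred arm of the chromosome 21 copy, was at 105, 64.2 and 88.2 RPM in miR-450a cells, 681, 557 and 600 RPM in miR-450b cells and 362, 549 and 499 RPM in empty-vector cells. It fell by 2.33 ± 0.28 in miR-450a cells against empty-vector cells (limma adjusted p = 2.66e-05). In miR-450b cells its libraries were all above those of empty-vector cells, yet the log2 change of 0.39 ± 0.28 did not pass (limma adjusted p = 0.387). The calls of miR-99a* and miR-125b-2* in miR-450a cells, against empty-vector cells and against miR-450b cells (log2 changes of -3.24 and -2.72), held under all 18 alternatives.

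Of the chromosome 19 starred arms, miR-125a* was called lower in miR-450a cells than in either other group and miR-99b* did not pass. miR-99b* was at 458, 235 and 483 RPM in miR-450a cells, 750, 704 and 630 RPM in miR-450b cells and 371, 713 and 650 RPM in empty-vector cells. Its log2 change in miR-450a cells against empty-vector cells was -0.56 ± 0.35 (limma adjusted p = 0.195), which passed under median-of-ratios scaling (-0.995, limma adjusted p = 0.0388). miR-125a* was at 102, 61.3 and 54.4 RPM in miR-450a cells, 236, 192 and 180 RPM in miR-450b cells and 249, 91.5 and 150.2 RPM in empty-vector cells. It fell by 1.01 ± 0.36 in miR-450a cells against empty-vector cells (limma adjusted p = 0.0342) with overlapping groups. That call was lost in 7 of 18 alternatives, among them leaving out miR-450a replicate 2 (limma adjusted p = 0.0890) or 3 (0.122), miR-450b replicate 2 (0.0508) and empty-vector replicate 1 (log2 change -0.67, limma adjusted p = 0.110) or 3 (0.0704). Between both overexpressing groups, miR-125a* fell by 1.40 ± 0.36 in miR-450a cells (limma adjusted p = 0.00684), and this call held under all 18 alternatives. The log2 change of miR-99b* there was -0.87 ± 0.35 (limma adjusted p = 0.0506), and it passed in 6 of 18 alternatives, with adjusted p of 0.00490 to 0.167 over them, although its groups did not overlap.

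The starred arm of a hairpin as a share of both its arms was compared in 12 exact permutation tests. For miR-99a it was 6.06% ± 2.89 in miR-450a cells, 6.41% ± 0.550 in miR-450b cells and 3.00% ± 1.12 in empty-vector cells (SD, n = 3 each). For miR-125b-2*, over the reads of all miR-125b arms, it was 6.52%, 10.3% and 5.21%. In miR-450b cells both were above empty-vector cells without overlap (two-sided exact permutation p = 0.1 each, 0.4 adjusted over 12 tests). The share was 4.42%, 3.72% and 4.83% for miR-99b, and 6.36%, 7.39% and 6.39% for miR-125a.

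The starred arms of the chromosome 11 locus were close to 0, and miR-100, given above, was scarce. miR-100* was listed at 0 in all 9 libraries. miR-125b-1* was at 1.54, 0.223 and 0.131 RPM in miR-450a cells, 0.472, 0.325 and 0.0715 RPM in miR-450b cells and 0.265, 0.164 and 0.267 RPM in empty-vector cells. The starred arm of the let-7 gene between them, let-7a-2*, reached 0.531 RPM at most. Without the read totals it is unknown how many reads these values stand for, and no fold is given.

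The precursor table reads differently for miR-125b. There hsa-mir-125b-1 averaged 690.3 ± 334 RPM in miR-450a cells, 2812 ± 751 RPM in miR-450b cells and 4435 ± 982 RPM in empty-vector cells, and hsa-mir-125b-2 averaged 775 ± 354, 3421 ± 725 and 4901 ± 987 RPM (SD, n = 3 each). Copy 1 thus held 43.3% to 48.2% of the precursor reads of both copies in the 9 libraries. Of the starred reads of both copies, which differ in sequence, copy 1 held 0.0119% to 1.45%. This need not be its share of the mature miR-125b reads. In every library each copy's precursor value equalled an equal part of the mature miR-125b reads plus its own starred arm, within 4.38 RPM. For the other 4 precursors the value was the sum of both arms with a difference of 0.0 RPM. The log2 changes of hsa-mir-125b-1 and hsa-mir-125b-2 in miR-450a cells against empty-vector cells were -2.78 and -2.75. They therefore mostly follow the shared mature row (-2.79), to which copy 2 adds its starred arm, and are no measurement of separate copies.

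**Figure D3:**
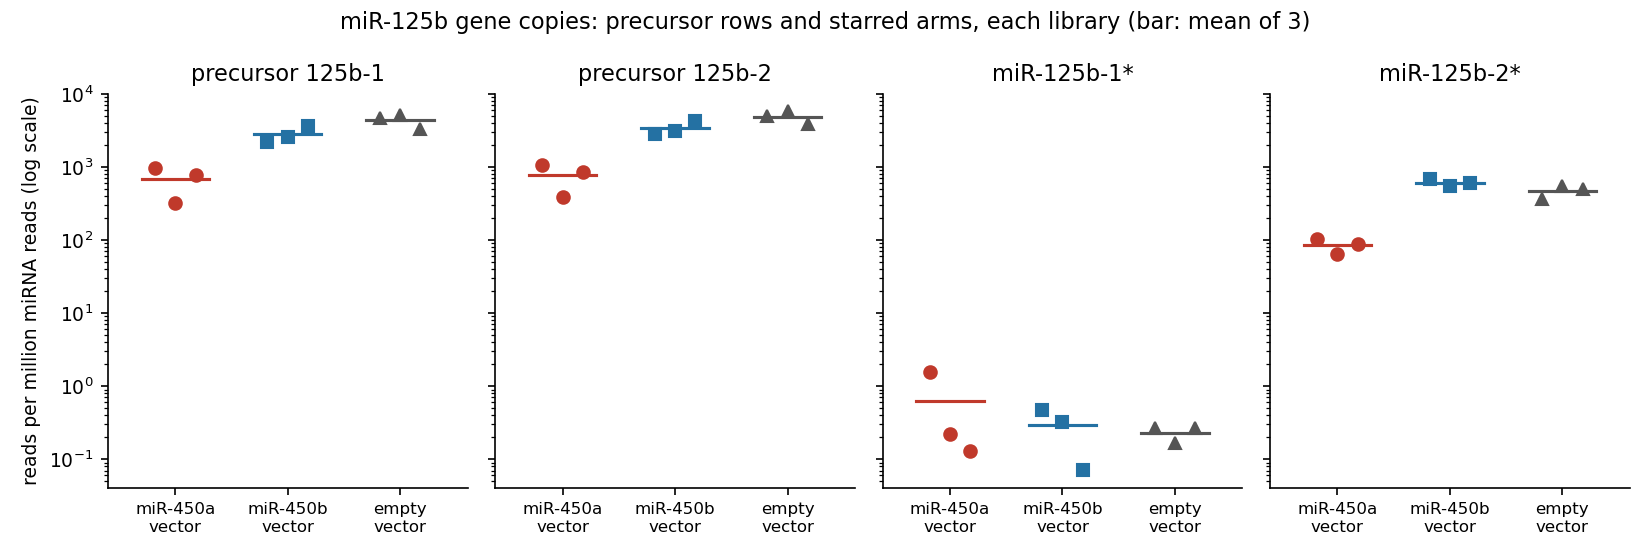
RPM on a log axis of the precursor rows and starred arms of both miR-125b gene copies in each library, by vector, with a bar at the mean of 3 libraries. The precursor rows of copies 1 and 2 lie close together, whereas the starred arm of copy 1 stays at or below 1.54 RPM and that of copy 2 lies between 64.2 and 681 RPM.

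The starred arms of the member hairpins were also summed by locus, a quantity chosen after the values were seen and given without a test. The chromosome 21 sum (miR-99a* and miR-125b-2*) was 138, 116 and 112 RPM in miR-450a cells, 1066, 1003 and 1018 RPM in miR-450b cells and 1020, 1124 and 956 RPM in empty-vector cells. The chromosome 19 sum (miR-99b* and miR-125a*) was 560, 297 and 537 RPM in miR-450a cells, 986, 896 and 810 RPM in miR-450b cells and 620, 804 and 800.1 RPM in empty-vector cells. Chromosome 21 gave 21.7% ± 5.65 of the starred reads of the 3 loci in miR-450a cells, 53.5% ± 1.97 in miR-450b cells and 58.3% ± 3.88 in empty-vector cells (SD, n = 3 each), and chromosome 11 at most 0.220%.

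The let-7 genes that lie between the members did not all move with them. let-7c, on chromosome 21 between miR-99a and miR-125b-2, was at 1898, 1055 and 1566 RPM in miR-450a cells, 16165, 13161 and 8582 RPM in miR-450b cells and 1612, 3336 and 2202 RPM in empty-vector cells. It rose by 2.42 ± 0.36 in miR-450b cells against empty-vector cells (limma adjusted p = 0.000600), where miR-99a was 3.33 times lower on average. In miR-450a cells its log2 change was -0.64 ± 0.36 (limma adjusted p = 0.160), which passed under median-of-ratios scaling alone of 18 alternatives (-1.08, limma adjusted p = 0.0339).

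The starred arm let-7c* was at 11.4, 9.91 and 8.28 RPM in miR-450a cells, 115, 94.9 and 105 RPM in miR-450b cells and 25.1, 34.9 and 23.1 RPM in empty-vector cells. It fell by 0.91 ± 0.20 in miR-450a cells (limma adjusted p = 0.00239) and rose by 1.62 ± 0.20 in miR-450b cells (limma adjusted p = 0.000156), each against empty-vector cells. Both arms of let-7c were thus called higher in miR-450b cells, while neither arm of miR-99a passed.

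let-7e, on chromosome 19 between miR-99b and miR-125a, averaged 5043 ± 1050 RPM in miR-450a cells, 10588 ± 2352 RPM in miR-450b cells and 3330 ± 1064 RPM in empty-vector cells (SD, n = 3 each). It rose by 1.70 ± 0.32 in miR-450b cells (limma adjusted p = 0.00338) and had a log2 change of 0.63 ± 0.32 in miR-450a cells (limma adjusted p = 0.118), each against empty-vector cells. Its starred arm let-7e* passed in neither comparison. The log2 change of let-7e* was 0.71 ± 0.24 in miR-450b cells (limma adjusted p = 0.0797) and -0.26 ± 0.24 in miR-450a cells (limma adjusted p = 0.379). let-7a, whose 3 gene copies share 1 row, averaged 19950 ± 4577 RPM, 32386 ± 7672 RPM and 4818 ± 1588 RPM in the same groups. It rose by 2.07 ± 0.32 in miR-450a cells (limma adjusted p = 0.000213) and by 2.77 ± 0.32 in miR-450b cells (limma adjusted p = 0.000125). These reads cannot be assigned to the chromosome 11 copy. Against empty-vector cells, 1 of these 3 let-7 rows was thus called higher in miR-450a cells, where 36.9% of all mature rows tested were. In miR-450b cells 3 of 3 were, where 4.43% of all mature rows tested were. The row called in miR-450a cells was let-7a, which pools its 3 gene copies, while let-7c and let-7e were not called higher there. In miR-450b cells let-7c and let-7e were called as well as the pooled let-7a row. The rise was not particular to these loci. The precursors hsa-let-7b, hsa-let-7d, hsa-let-7f-1, hsa-let-7f-2, hsa-let-7g and hsa-let-7i of other loci were also called higher against empty-vector cells. Their log2 changes were 2.21 to 3.74 in miR-450b cells and 2.63 to 3.80 in miR-450a cells. No test compared the let-7 neighbours with these rows.

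**Figure D4:**
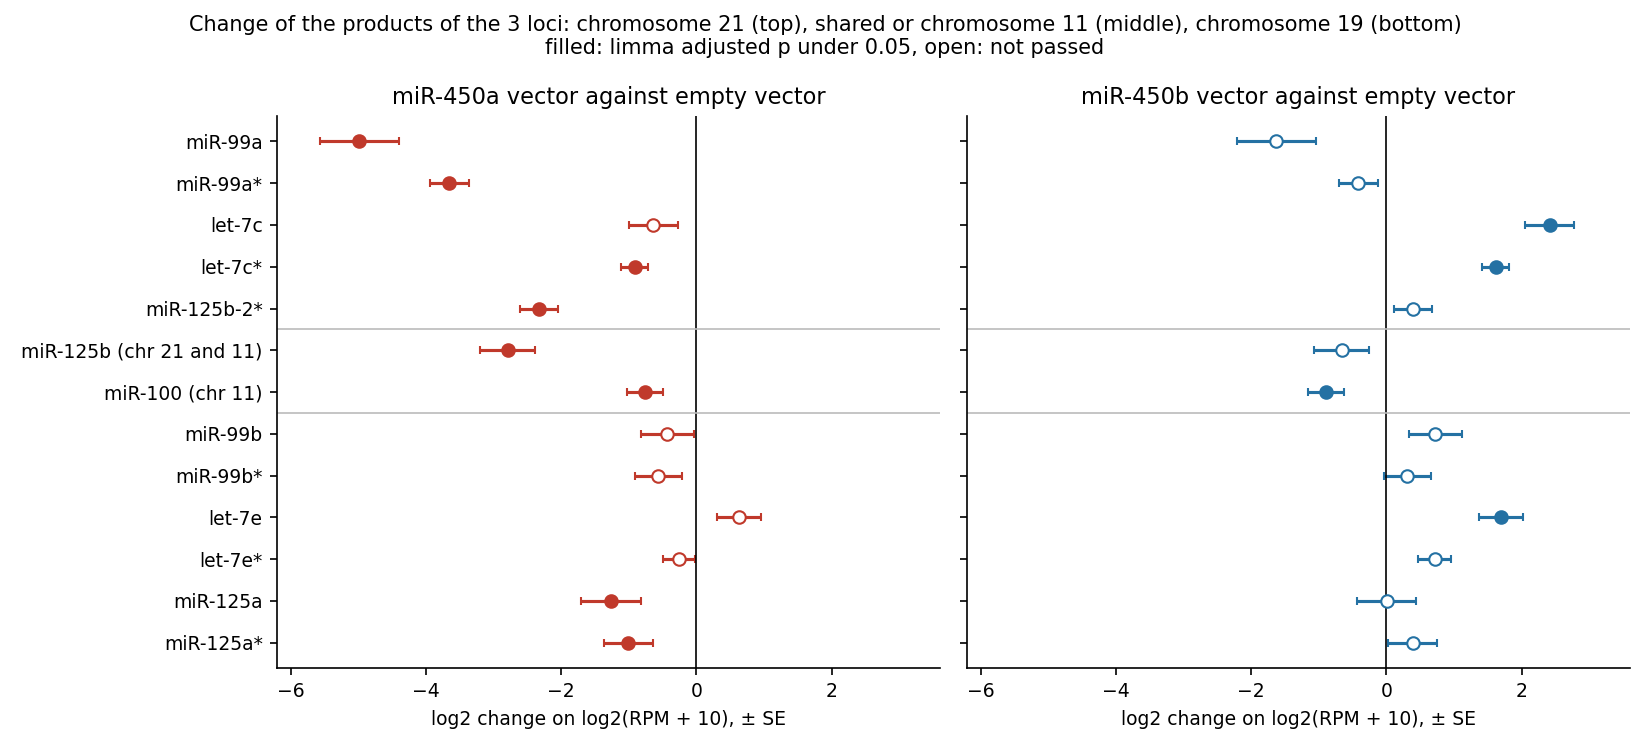
Log2 change ± SE on log2(RPM + 10) of the products of each locus, miR-450a cells against empty-vector cells on the left and miR-450b cells against empty-vector cells on the right, with filled points for a limma adjusted p under 0.05 and open points otherwise. In miR-450b cells against empty-vector cells, let-7c lies at 2.42 while miR-99a of the same locus lies at -1.63.

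Likeness of profiles was measured over the 9 libraries as the root mean square difference of centred log2(RPM + 10) values, among 402 other human rows tested. Nearest to miR-99a were miR-204 (0.609), its own starred arm (0.771) and miR-130a* (0.774), against a spread of 2.20 of miR-99a about its own mean. miR-204 averaged 45.2 RPM in miR-450a cells, 537 RPM in miR-450b cells and 1512 RPM in empty-vector cells, and miR-130a* averaged 0.0743, 186 and 597 RPM. Nearest to miR-125b were miR-212-3p (0.485), miR-27a* (0.564) and miR-23a* (0.581), and nearest to miR-99b were miR-92b* (0.243), miR-181a-2* (0.243) and miR-183 (0.247). miR-125a was nearest to miR-191 (0.403), miR-212-5p (0.422) and miR-92b (0.431), and miR-100 to miR-874 (0.325), miR-330-5p (0.325) and miR-499 (0.376). Among the members themselves, miR-99b and miR-125a of chromosome 19 were the closest pair, at 0.614. The paralogs miR-99a and miR-99b were the farthest apart, at 2.15, and miR-99a and miR-125b were 1.34 apart. These distances are not scaled to the spread of a row, so rows that vary little lie close to one another. The spread about the own mean was 0.652 for miR-99b, 0.778 for miR-125a, 1.277 for miR-125b and 0.484 for miR-100. Which pair of members varied together most closely was therefore not tested.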

How the data were processed

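Small RNA was sequenced in 9 A2780 libraries as 50-cycle single reads, per the labels' protocols. The authors deposited fractions: each value is the part of a library's miRNA reads that a mature miRNA or precursor took, and each column sums to 1. How reads were aligned and annotated is not given in the sources used here. TopHat and Cuffdiff appear in the submitters' processing notes, without a version and without saying for which files. Read totals are unknown, so no counting interval or detection limit was computed.

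Fractions were multiplied by 1000000 and analysed as log2(RPM + 10), so that fold changes of low rows are understated. Rows that averaged 10 RPM or more were fitted with limma 3.58.1 in R 4.3.3 (intensity trend, all 9 libraries, Benjamini-Hochberg over all 406 mature or 284 precursor rows, threshold 0.05). All 5 mature and 6 precursor members passed this filter, and 4 of their 6 starred rows did. Sums, shares and ratios per library were compared by exact permutation tests in Python 3.11.15 (scipy 1.17.1). The limma fit was tested on simulated data with planted changes and the same spread for all rows.

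The members and lists were chosen with earlier results of these data known. Named rows were the members, their starred arms, their let-7 neighbours, the 3 most similar profiles per member, and rows that stand for the difference between the libraries as a whole. Alternatives were other pseudocounts (1 and 100 RPM), filters (none, or a mean of 100 RPM), median-of-ratios scaling, rescaling after removing miR-450a and miR-450b, no trend, a fit of just the groups compared, a replicate block and leaving out single libraries. Sequences are from RefSeq (GRCh38.p14). Not analysed here were 12 mRNA sequencing samples and 4 PAR-CLIP samples.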

Additional observations from a re-analysis of the deposited data

How the results depend on the processing

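Counts of called rows kept within 1.5 times of the values reported in 104 of 108 cases. The others came with a minimum mean of 100 RPM, under which fewer rows were tested. They were 137 of 241 mature rows (56.8%) for miR-450a cells against empty-vector cells, where 225 of 406 (55.4%) were reported, 38 (15.8%) for miR-450b cells against empty-vector cells (59, 14.5%), and 140 (58.1%) between both overexpressing groups (245, 60.3%). Among precursors between both overexpressing groups, 60.7% of the fewer rows tested were called (190 of 284, 66.9%). With no filter the counts kept within 1.5 times, but the shares of rows tested fell, as 1410 mature rows were tested. They were 21.6% for miR-450a cells and 3.69% for miR-450b cells, each against empty-vector cells, and 22.1% between both overexpressing groups. Median-of-ratios scaling moved the share of higher calls among mature rows to 51.98% in miR-450a cells against empty-vector cells (66.67% reported), 48.73% between both overexpressing groups (69.39%) and 40.0% in miR-450b cells against empty-vector cells (30.51%), and among precursors to 52.83% (69.1%), 50.99% (73.68%) and 41.3% (32.65%), in the same order. It called hsa-mir-99b lower in miR-450a cells than in empty-vector cells (-1.02, limma adjusted p = 0.0361) and moved miR-100 and hsa-mir-100 of miR-450a cells against miR-450b cells to -0.26 and -0.39. A pseudocount of 100 RPM moved the log2 ratio of miR-100 to miR-99b, miR-450a cells against empty-vector cells, to 0.19 (-0.33 reported).

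Leaving out 1 library gave log2 changes of -0.37 to 0.33 for miR-125a and -0.34 to 0.31 for hsa-mir-125a (miR-450b cells against empty-vector cells), and -0.13 to 0.35 for miR-100 and hsa-mir-100 (miR-450a cells against miR-450b cells). The log2 ratio of miR-99b to miR-125a between both overexpressing groups ranged from -0.11 to 0.28. Differences in the starred share, in percentage points, ranged from -1.86 to 1.02 for miR-99a between both overexpressing groups and from -0.669 to 0.00370 for miR-99b in miR-450a cells against empty-vector cells. For miR-125a they ranged from -2.14 to 1.30 (miR-450a cells against empty-vector cells), -1.11 to 2.16 (miR-450b cells against empty-vector cells) and -2.18 to 0.303 (between both overexpressing groups). None of these had passed a test, and where a setting's construction does not show it, the cause of a move was not tested.

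Whether the replicate numbers pair the libraries was not settled. Of 9 pairs with the same number, 4 had a correlation of deviations over 0.1 (range -0.507 to 0.641). Yet 6 of 9 libraries correlated best with a library of their own number. With the replicate block, 230 mature rows (56.7%) were called for miR-450a cells against empty-vector cells, 58 (14.3%) for miR-450b cells against empty-vector cells and 251 (61.8%) between both overexpressing groups. Under it, miR-100 was not called against empty-vector cells (limma adjusted p = 0.0537 in miR-450a cells and 0.0877 in miR-450b cells), and miR-99a was called in miR-450b cells (0.0428). Of the changes of the mature and precursor members under the alternatives, 514 kept their side of the threshold, 55 lost it, 11 gained it and 8 changed sign. The unknown depth limits the rows below 2 RPM most.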
